A study of Agaricus bisporus with 12 samples.

Results

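The 2 libraries of the spawning stage were compared with all 10 later libraries of a cultivation series of the white button mushroom, Agaricus bisporus. The spawning libraries came from compost sampled on day 16 of incubation at 25 °C, when mycelium of the commercial heterokaryon A15 had grown through it. The later libraries came from compost under casing, with 2 libraries from each of 5 stages: pinning, the first flush, the time after it, the second flush, and the time after that one. Casing is the layer of peat and lime laid on colonised compost, pinning is the time when mushroom primordia appear, and a flush is a wave of mushrooms. All 12 libraries were made from total RNA of phase II compost (wheat straw, horse and chicken manure, gypsum) carrying the same strain, so none of them was prepared from picked mushrooms by its label. Of 12 libraries in all, 2 stood on the spawning side. The stages were set equal in weight on the later side, and a gene was taken up only when both spawning libraries lay on the same side of every later library.

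In spawn run the hyphae of this fungus live on composted straw and its microbial biomass and form no mushrooms. Laccases and peroxidases oxidise lignin and other phenols, hydrolases release sugars from wall polysaccharides, and transporters carry the products inward. Once casing is laid, primordia form and the same mycelium also supplies the growing fruiting bodies. RNA from such compost is a bulk measure, in which fewer living cells of a kind and less RNA per cell cannot be told apart.

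The spawning libraries held 7.27 M and 7.43 M unique reads in genes (M, mega-reads), against 8.41 M to 9.34 M in each later one, so the spawning libraries were the 2 shallowest. The spawning libraries correlated with each other at 0.993 across genes, and with later libraries at 0.855 to 0.917. These values are for log2 of CPM + 0.5, where CPM are counts scaled to the library total, here also by the TMM method given below. Genes are not independent replicates. Whether the paired libraries of a stage stem from separate compost samples is not stated in the labels. The p-values therefore reflect only how far these libraries spread, which may be technical. Library codes of the first flush have a letter of their own, and a batch and that stage cannot be told apart.

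Of 8814 tested genes, 1864 were higher at spawning than in all 10 later libraries, which is 21.1% of the genes tested. Another 2122 genes were lower at spawning than in all of them, which is 24.1%. A gene counted when edgeR's quasi-likelihood test of spawning against the mean of the 5 later stages gave a Benjamini-Hochberg adjusted p under 0.05 and its libraries did not overlap. Overlap was judged in CPM scaled by TMM, a method that centres libraries on genes of moderate change. Without that scaling 1130 genes (12.8%) were higher and 2985 (33.9%) lower, so that 27.5% of separated genes were higher in place of 46.8%, and the median log2 difference of all tested genes lay at −0.34 in place of −0.06. With DESeq2's size factors the counts were 2034 higher (23.1%) and 1957 lower (22.2%). Of the TMM calls, 1130 higher and 1957 lower ones were made under all 3 scalings. A further 919 genes passed the adjusted p as higher and 910 as lower, but overlapped with at least 1 later library and are left aside.

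The distance from the nearest later library differed widely among the separated genes. This gap is the lowest library on the higher side over the highest on the lower side, in TMM-scaled CPM with 0.5 added to both. Its median was 1.28-fold for genes higher at spawning and 1.38-fold for genes lower at spawning. At least 2-fold gaps were found for 243 higher genes and 393 lower ones. At least 8-fold gaps were found for 23 higher genes and 4 lower ones, and 16-fold gaps for 8 higher genes and 0 lower ones. Genes higher at spawning together held 50.4% and 51.4% of reads in the spawning libraries, against 23.5% to 31.1% in later libraries. Genes lower at spawning held 8.72% and 8.08% in the spawning libraries, against 20.3% to 27.0% in later ones. Both sets were picked by these same counts, so the direction of the 2 contrasts follows from the rule and only their size is described.

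**Figure D1:**
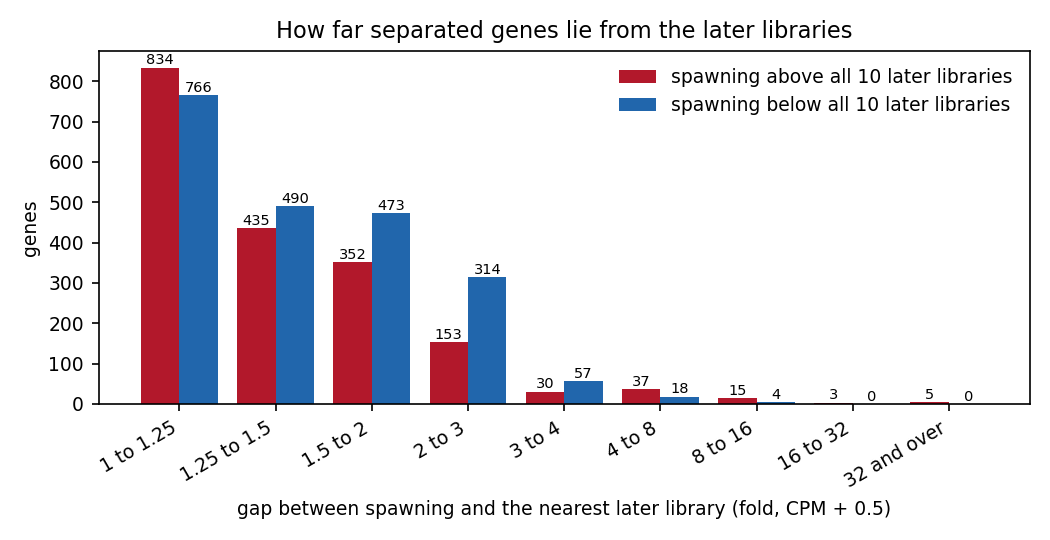
Number of separated genes (y axis) by the gap between spawning and the nearest later library (x axis, fold in TMM-scaled CPM + 0.5), with genes above all later libraries in red and genes below them in blue. Between 2-fold and 4-fold there were more lower genes than higher ones, and from 8-fold up more higher ones (23 against 4).

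The 12 described genes with the widest separation above the later libraries, among those of at least 20 CPM at spawning, included a protease, a cutinase, an alpha-glucosidase, a decarboxylase of a phenolic acid and a pair of glutathione transferases, beside genes annotated as splicing and transcription factors. Levels are given as deposited RPKM, unique reads scaled to gene length and to the library's total. Gene 212363, annotated as saccharopepsin, a vacuolar aspartic protease in yeast, had 175 and 177 RPKM at spawning, against 0 to 2.87 RPKM with a median of 0.484 later. Its later libraries lay near 0, the highest being from pinning, and its log2 difference was 8.35 (SE 0.26, edgeR adjusted p = 1.6e-08). Gene 190200, a cutinase, which splits the polyester of plant cuticles, had 196 and 153 RPKM at spawning, against 1.78 to 3.16 RPKM (median 2.47) later. The gap of the cutinase was 49.1-fold (log2 difference 6.41, SE 0.12, edgeR adjusted p = 1.3e-11). Gene 210050, annotated as 2,3-dihydroxybenzoate decarboxylase, an enzyme that removes the carboxyl group of a phenolic acid, had 117 and 106 RPKM at spawning, against 0.328 to 2.09 RPKM (median 0.958) later, a gap of 47.9-fold.

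The 9 other described genes of that group had gaps of 7.54-fold to 15.2-fold. A pair of glutathione transferases, which couple glutathione to reactive compounds, belonged to them. Glutathione transferase 193903 had 919 and 904 RPKM at spawning, against 10.3 to 115 RPKM (median 62.0) later. Glutathione transferase 193900 had 432 and 452 RPKM at spawning, against 5.67 to 44.0 RPKM (median 15.9) later. For both of them the highest later library was from pinning and the lowest from after first flush.

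An alpha-glucosidase (183688), which cuts glucose from maltose-like sugars, had 59.3 and 58.6 RPKM at spawning, against 2.88 to 8.002 RPKM (median 5.51) later. An alkaline phosphatase D (154430), an enzyme that frees phosphate from organic esters, had 14.4 and 13.3 RPKM at spawning, against 0.200 to 0.978 RPKM (median 0.441) later. The spawning pair was tight for both of these genes, while their later libraries spread more widely. Gene 120008, annotated only with a glycosidase enzyme class, had 40.3 and 41.0 RPKM at spawning, against 0 to 4.48 RPKM (median 1.65) later. Genes 204168 and 68812 carry the annotation splicing factor 3B subunit 1 and gene 211605 that of TFIIH subunit 2, names that rest on a database match alone. Gene 211605 had 772 and 674 RPKM at spawning, against 5.29 to 117 RPKM (median 60.5) later, and so varied over a wide range among the later libraries themselves.

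**Figure D2:**
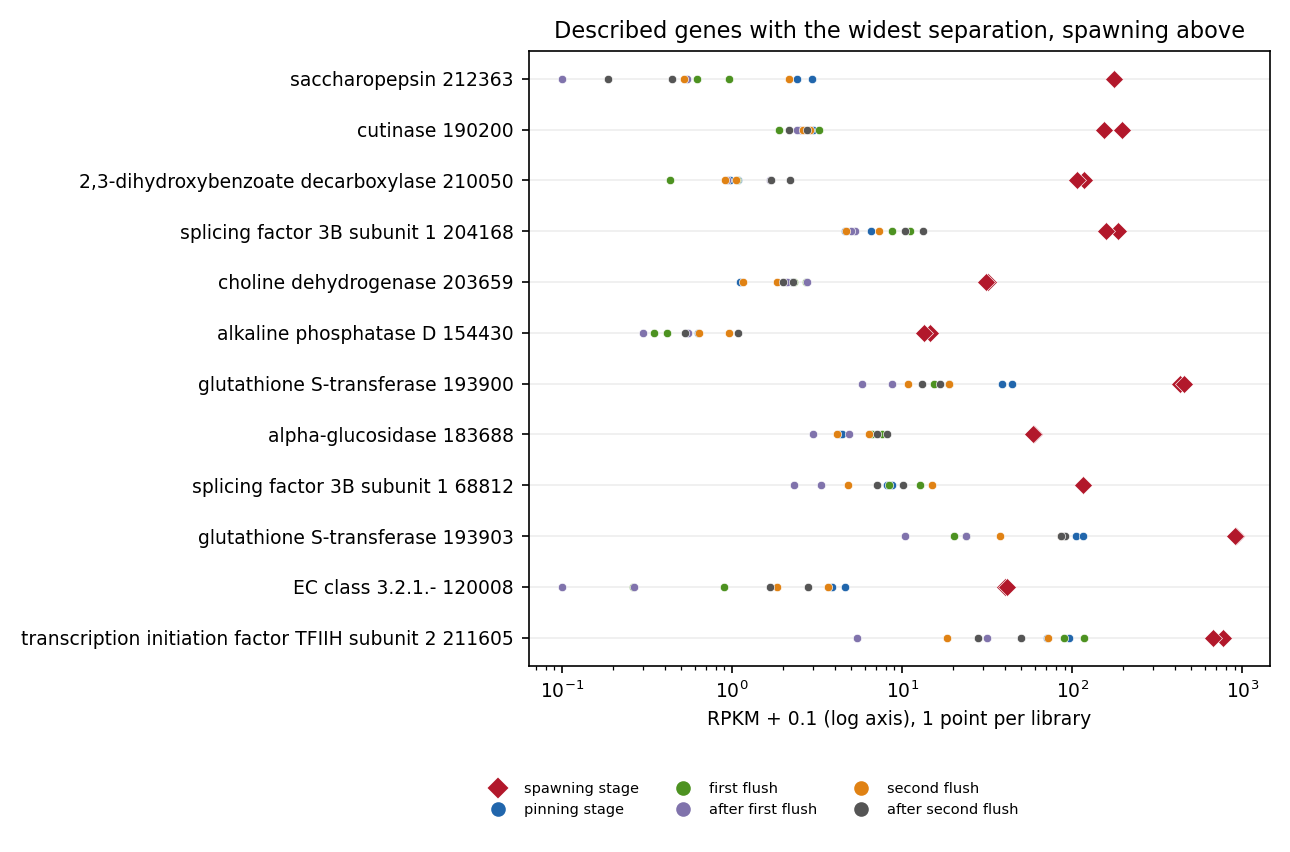
RPKM + 0.1 (x axis, log scale) in each of the 12 libraries for the 12 described genes (rows) with the widest gap above the later libraries, spawning as red diamonds and later stages as coloured circles. The spawning pair stands apart in every row, by a gap of 58.5-fold for saccharopepsin 212363 and 7.54-fold for gene 211605.

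Of 11 laccases tested, secreted copper enzymes that oxidise phenols, 4 were higher at spawning than in every later library, as was the small subunit of laccase-2, counted with them as a list of 12. None of the 12 was lower, though without scaling 2 were. The median log2 difference of the list was 0.71, beside −0.06 over all tested genes. Further list members named here and below, beyond the widest in each direction, were picked for their role after their values were seen. Over all tested genes 21.1% were higher and 24.1% lower, and 12.8% and 33.9% without scaling. All list counts here and below are to be read beside these shares. Laccase-2 (139148) had 10220 and 10740 RPKM at spawning, against 45.9 to 1700 RPKM (median 412) later (log2 difference 4.85, SE 0.55, edgeR adjusted p = 0.00017). The laccase-2 small subunit (149407) had 12950 and 13330 RPKM at spawning, against 127 to 2183 RPKM (median 433) later. Laccase-1 (146228) had 3368 and 3601 RPKM at spawning, against 7.38 to 609 RPKM (median 24.6) later, a log2 difference of 6.86 (SE 0.32, edgeR adjusted p = 6.7e-07).

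Laccase-3 (184981) was less abundant, at 71.4 and 67.7 RPKM at spawning, against 3.34 to 14.9 RPKM (median 7.37) later. Laccase-10 (120944) was near the floor in both groups, with 2.71 and 1.45 RPKM at spawning and at most 1.27 RPKM later. For laccase-1, laccase-2, its small subunit and laccase-3 the highest later library was from first flush. The other 7 were not separated, with log2 differences that ran from −1.71 for laccase-12 (184993) to 0.72 for laccase-11 (209229). Together the laccases took 2.99% and 3.14% of reads at spawning, against 0.0514% to 0.572% in later libraries. Close paralogs share sequence, and since the deposited counts are of unique reads their levels are uncertain. The single manganese peroxidase (221245), a heme enzyme that oxidises lignin through manganese ions, had 976 and 960 RPKM at spawning, against 24.6 to 153 RPKM (median 41.5) later.

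Sugar and alcohol oxidoreductases can supply the hydrogen peroxide that peroxidases use. Of 36 tested 13 (36.1%) were higher at spawning and 7 (19.4%) lower, beside 21.1% and 24.1% over all tested genes. Many of them are annotated as choline dehydrogenase, a member of the GMC family of flavoenzymes. Gene 203659, with this annotation, had 32.02 and 31.1 RPKM at spawning, against 1.02 to 2.66 RPKM (median 2.08) later. Gene 190928, of the same annotation, had 420 and 453 RPKM at spawning, against 65.6 to 162 RPKM (median 133) later. Gene 121236, again of this annotation, went the other way, with 6.79 and 6.50 RPKM at spawning, against 19.9 to 55.0 RPKM (median 28.1) later. Genes of a single annotation thus stood on both sides of the later libraries.

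Genes for plant wall polysaccharides were called in both directions. Of 13 cellulose genes 2 (15.4%) were higher, 1 (7.69%) was lower and 10 were not separated, with a median log2 difference of −0.76. Both shares lay below the 21.1% and 24.1% of all tested genes. Endoglucanase 150171, which cuts cellulose chains internally, had 26.7 and 28.2 RPKM at spawning, against 6.50 to 17.8 RPKM (median 13.4) later. The cellulose-growth-specific protein 226235 had 0.775 and 0.505 RPKM at spawning, from 6 and 4 reads, against 2.77 to 450 RPKM (median 48.9) later. Its later libraries ranged widely, with the highest from first flush and the lowest from pinning. Of 29 hemicellulose and pectin genes 7 were higher and 7 lower, 24.1% on either side, which is near the 21.1% and 24.1% over all tested genes.

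The higher 7 acted on side chains and pectin as well as on xylan. Beta-galactosidase 152299 had 341 and 316 RPKM at spawning, against 10.6 to 122 RPKM (median 54.6) later. Alpha-N-arabinofuranosidase 194576, which takes arabinose off xylan and pectin, had 443 and 468 RPKM at spawning, against 8.40 to 313 RPKM (median 78.9) later. Polygalacturonase 229720, which cuts the pectin backbone, had 14.8 and 16.7 RPKM at spawning, against 0.410 to 4.88 RPKM (median 1.83) later. The lower 7 included both called endo-1,4-beta-xylanases, which cut the xylan backbone. Xylanase 79647 had 0.956 and 0.234 RPKM at spawning, against 2.89 to 778 RPKM (median 60.2) later, and its call was lost when the second spawning library was left out. Acetylxylan esterase 196213, which strips acetyl groups from xylan, had 14.1 and 11.5 RPKM at spawning, against 22.8 to 383 RPKM (median 86.3) later.

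Of 40 cutinases, lipases and esterases 15 (37.5%) were higher at spawning and 3 (7.5%) lower, beside 21.1% and 24.1% over all tested genes. Without scaling 11 were higher and 7 lower, beside 12.8% and 33.9% over all tested genes. Of 4 tested cutinases 3 were among the higher ones, and the other one passed the adjusted p but not the separation from all later libraries. Cutinase 183005 had 53.4 and 44.2 RPKM at spawning, against 0.387 to 7 RPKM (median 1.58) later, and cutinase 176382 had 9.25 and 7.45 RPKM, against 0.621 to 6.03 RPKM (median 2.02) later. Triacylglycerol lipase 191068, which splits fats, had 376 and 331 RPKM at spawning, against 5.60 to 84.5 RPKM (median 31.7) later. A further lipase (115977) had 0 reads in the first spawning library and 1 in the second, against 0.522 to 2.61 RPKM in later libraries, too few for a useful ratio.

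Of 24 genes for starch, glycogen and trehalose, the storage sugars of fungi among them, 12 were higher and 2 lower. The shares over all tested genes were 21.1% higher and 24.1% lower. The trehalose-phosphate synthase subunit TPS1 (66173) had 85.0 and 90.5 RPKM at spawning, against 30.3 to 63.3 RPKM (median 46.6) later. Glycogen debranching enzyme 48387 had 374 and 382 RPKM at spawning, against 163 to 272 RPKM (median 215) later. Glycogen phosphorylase 209178, which releases glucose phosphate from glycogen, was lower, with 20.1 and 20.3 RPKM at spawning, against 29.2 to 81.3 RPKM (median 39.0) later. The call of this phosphorylase was lost when either spawning library was left out.

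Of 20 sugar transporters 9 (45.0%) were higher at spawning and 0 lower, beside 21.1% and 24.1% over all tested genes. Without scaling 6 of these transporters were higher and 3 lower. As a list they took 0.427% and 0.415% of reads at spawning, within the 0.328% to 0.451% of later libraries. The transporter annotated for inositol (185281) had 241 and 263 RPKM at spawning, against 35.5 to 104 RPKM (median 66.6) later. The most abundant called one, sugar symporter 193226, differed little, with 823 and 807 RPKM at spawning, against 526 to 783 RPKM (median 643) later. Of 8 pentose and polyol genes 3 were higher and 1 lower, and without scaling 1 was higher and 4 lower, so this list has no direction that holds under every scaling. Xylulokinase 188394, which feeds xylulose into the pentose phosphate pathway, had 404 and 484 RPKM at spawning, against 142 to 396 RPKM (median 244) later. Mannitol-1-phosphate 5-dehydrogenase 178863 had 42.02 and 39.9 RPKM at spawning, against 8.81 to 46.7 RPKM later, and was separated after TMM or DESeq2 scaling but not without scaling.

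Of 72 proteases tested 17 (23.6%) were higher at spawning and 24 (33.3%) lower, beside 21.1% and 24.1% over all tested genes, and without scaling 12 were higher and 29 lower. Beside saccharopepsin 212363, a second gene of that annotation (192428) had 772 and 823 RPKM at spawning, against 24.7 to 155 RPKM (median 68.3) later. Serine proteinase 194648 had 906 and 816 RPKM at spawning, against 3.58 to 239 RPKM (median 23.2) later. Among the lower ones, the Cys-Gly dipeptidase DUG1 (138440), which breaks down glutathione peptides in yeast, had 17.8 and 14.1 RPKM at spawning, against 63.7 to 153 RPKM (median 92.4) later. Xaa-Pro dipeptidase 229306 had 28.0 and 25.4 RPKM at spawning, against 89.4 to 244 RPKM (median 168) later.

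Of 31 genes for nitrogen assimilation 5 (16.1%) were higher and 9 (29.0%) lower, beside 21.1% and 24.1% over all tested genes. All 5 higher ones were transporters by annotation. The oligopeptide transporter 195475, which imports short peptides with protons, had 3873 and 4024 RPKM at spawning, against 508 to 2355 RPKM (median 1448) later. A second oligopeptide transporter (195900) was lower, with 407 and 340 RPKM at spawning, against 482 to 863 RPKM (median 702) later. Glutamine synthetase 190294, which fixes ammonium into glutamine, had 12.4 and 12.5 RPKM at spawning, against 45.4 to 56.3 RPKM (median 49.9) later, and both groups were tight. The NAD-specific glutamate dehydrogenase (193606) had 54.5 and 50.3 RPKM at spawning, against 183 to 316 RPKM (median 247) later. Of the lower 9, 4 were urease accessory proteins, which help assemble the nickel enzyme that splits urea.

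Cytochromes P450 and glutathione transferases act on foreign and aromatic compounds. Of 57 tested 23 were higher at spawning and 4 lower, shares of 40.4% and 7.02% beside the 21.1% and 24.1% of all tested genes. Without scaling 18 were higher and 10 lower. Their summed share of reads was 1.42% and 1.39% at spawning, against 0.911% to 1.40% later, so the shares overlapped. Cytochrome P450 120936 had 171 and 184 RPKM at spawning, against 12.7 to 34.6 RPKM (median 24.9) later. Glutathione transferase 226615 had 216 and 194 RPKM at spawning, against 3.56 to 76.6 RPKM (median 27.4) later. Of 33 multidrug and other exporters 18 (54.55%) were higher and 1 (3.03%) lower, and without scaling 11 were higher and 1 lower. The ABC transporter 151707 of subfamily B, a family of pumps that move lipids and drugs across membranes, had 126 and 120 RPKM at spawning, against 28.1 to 45.7 RPKM (median 36.5) later. The multidrug carrier 225490 of the major facilitator superfamily had 854 and 875 RPKM at spawning, against 35.8 to 537 RPKM (median 277) later.

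Of 17 genes for sterol synthesis, the route to the fungal membrane sterol ergosterol, 12 (70.6%) were higher at spawning and 3 (17.65%) lower. Over all tested genes the shares were 21.1% and 24.1%. The median log2 difference of the list was 1.32. The sterol 14-demethylase CYP51 is counted in this list and among the P450 genes. C-8 sterol isomerase 135078 had 255 and 242 RPKM at spawning, against 23.4 to 111 RPKM (median 51.1) later. Methylsterol monooxygenase 228680, which starts removal of the C-4 methyl groups, had 1241 and 1359 RPKM at spawning, against 158 to 478 RPKM (median 262) later. Squalene monooxygenase 205454, which makes the epoxide that is cyclised to lanosterol, had 67.8 and 73.9 RPKM at spawning, against 13.8 to 29.6 RPKM (median 22.4) later.

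CYP51 gene 191124 was higher, with 422 and 456 RPKM at spawning, against 87.4 to 185 RPKM (median 152) later. The second CYP51 gene (73753) was lower and scarce, with 2.26 and 3.68 RPKM at spawning, against 5.85 to 23.1 RPKM (median 9.56) later. The other lower genes were early ones of the route, though hydroxymethylglutaryl-CoA synthase (193269), also an early one, was called higher. Diphosphomevalonate decarboxylase 196085 had 47.8 and 41.7 RPKM at spawning, against 84.6 to 174 RPKM (median 105) later, and farnesyl diphosphate synthase 193864 had 141 and 133 RPKM, against 181 to 312 RPKM (median 238) later. The sterol list took 1.37% and 1.47% of reads at spawning, against 0.495% to 0.820% later.

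Of 51 genes for fatty acid oxidation and synthesis 18 (35.3%) were higher and 3 (5.88%) lower, beside 21.1% and 24.1% over all tested genes. Without scaling 12 were higher and 5 lower. Carnitine acetyltransferase 179138, which passes acetyl groups between compartments, had 210 and 224 RPKM at spawning, against 14.0 to 88.8 RPKM (median 54.9) later. Long-chain acyl-CoA synthetase 149127, which activates fatty acids, had 422 and 420 RPKM at spawning, against 89.7 to 210 RPKM (median 163) later. A mitochondrial carrier for acylcarnitine (118570) was lower, with 2.01 and 1.12 RPKM at spawning, against 5.60 to 21.2 RPKM (median 8.30) later.

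Of 55 genes for chitin and wall glucan, the polymers of the fungal wall, 21 (38.2%) were higher at spawning and 6 (10.9%) lower. Over all tested genes the shares were 21.1% and 24.1%. Hexosaminidase 188060, which releases sugar units of chitin, had 20.01 and 16.8 RPKM at spawning, against 2.11 to 6.96 RPKM (median 3.68) later. Chitin synthase 213484 had 149 and 147 RPKM at spawning, against 79.3 to 115 RPKM (median 101) later. Chitin deacetylases stood on both sides. Gene 180621 had 20.4 and 21.5 RPKM at spawning, against 2.83 to 12.6 RPKM (median 3.94) later, and gene 228408 had 32.3 and 35.3 RPKM at spawning, against 78.7 to 384 RPKM (median 117) later.

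Of 5 tested hydrophobins, small secreted proteins that coat hyphae, 2 were higher and 1 lower. With 5 members, this list is too short to set against the 21.1% higher and 24.1% lower over all tested genes. Hydrophobin 193057, the most abundant described gene called higher, had 17930 and 19530 RPKM at spawning, against 1950 to 17740 RPKM (median 7917) later. Its pinning library almost reached the spawning ones, and the gap was 1.09-fold. Hydrophobin 193052 had 4208 and 4624 RPKM at spawning, against 265 to 2923 RPKM (median 1353) later. Hydrophobin 189334 was scarce, with 1.78 and 2.51 RPKM at spawning, against 3.58 to 8.19 RPKM later, and its call was lost without the first spawning library.

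Genes marking fruiting body tissue, a tissue the later compost samples could hold, were few and scarce. The list held tyrosinases and lectins but no aegerolysin, since none was described under that name. Of 9 tested 2 (22.2%) were higher and 1 (11.1%) lower, beside 21.1% and 24.1% over all tested genes. The summed share of the list was 0.0346% and 0.0318% of reads at spawning, against 0.0281% to 0.155% later. The part of such tissue in the differences was not tested. Tyrosinase 191507, a phenol oxidase that browns mushrooms, had 4.05 and 6.45 RPKM at spawning, against 18.7 to 198 RPKM (median 63.2) later. Tyrosinase 120049 went the other way, with 10.7 and 12.3 RPKM at spawning, against 0.906 to 6.08 RPKM (median 1.91) later.

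The 12 described genes with the widest separation below the later libraries, among those of at least 20 CPM later, included an actin with a pair of its partners, nucleoside-diphosphate kinase, argininosuccinate lyase and cystathionine gamma-synthase, beside diphthine synthase and 3 genes annotated only with an enzyme class. Gene 122757, annotated only with a glycosidase enzyme class, had 1.74 and 1.51 RPKM at spawning, from 9 and 8 reads, against 18.1 to 1859 RPKM (median 188) later. Its log2 difference of −6.87 had an SE of 1.41 (edgeR adjusted p = 0.0037). Libraries of a single stage were far apart, with 18.1 and 262 RPKM after first flush and 114 and 41.4 RPKM in second flush. Nucleoside-diphosphate kinase 190737, which balances nucleoside triphosphates, had 124 and 113 RPKM at spawning, against 637 to 1407 RPKM (median 852) later (log2 difference −2.72, SE 0.19, edgeR adjusted p = 3.8e-07). Actin gene 194972 had 15.9 and 14.0 RPKM at spawning, against 96.7 to 194 RPKM (median 134) later (log2 difference −2.89, SE 0.17, edgeR adjusted p = 1.1e-07).

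The other 9 had gaps of 3.76-fold to 4.58-fold. Subunit 3 of the Arp2/3 complex (195819), which starts actin branches, had 24.7 and 22.9 RPKM at spawning, against 129 to 200 RPKM (median 156) later. The beta subunit of capping protein (218707), which blocks filament ends, had 10.8 and 9.83 RPKM at spawning, against 45.2 to 89.8 RPKM (median 76.2) later. The lowest later library of capping protein was from pinning. Argininosuccinate lyase 190575, the last step to arginine, had 13.3 and 11.1 RPKM at spawning, against 77.1 to 170 RPKM (median 126) later. Cystathionine gamma-synthase 202594, an enzyme on the way to methionine, had 5.01 and 5.23 RPKM at spawning, against 30.3 to 63.9 RPKM (median 44.9) later. Subunit A of the activating enzyme E1 for ubiquitin-like modifiers (193789) had 3.21 and 2.76 RPKM at spawning, against 18.1 to 26.0 RPKM (median 22.1) later.

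**Figure D3:**
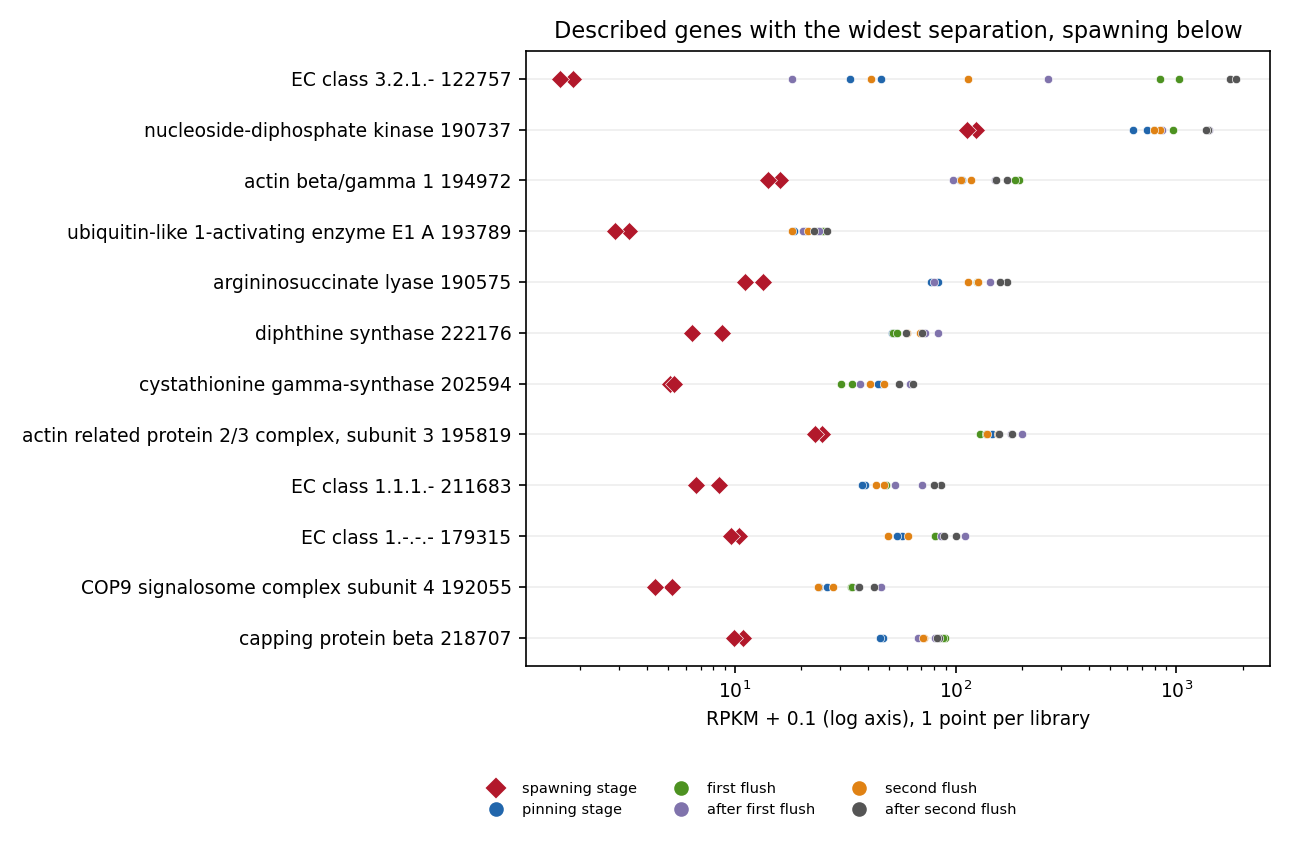
RPKM + 0.1 (x axis, log scale) in each of the 12 libraries for the 12 described genes (rows) with the widest gap below the later libraries, spawning as red diamonds and later stages as coloured circles. The gaps run from 6.23-fold for gene 122757, whose later libraries spread most, to 3.76-fold for capping protein 218707.

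Of 76 ribosomal protein genes 70 (92.1%) were lower at spawning and 2 (2.63%) higher, beside 24.1% and 21.1% over all tested genes. Their median log2 difference was −1.41. The counts were also 70 and 2 without scaling and with DESeq2's size factors. The list took 1.83% and 1.68% of reads at spawning, against 4.42% to 6.80% later. Ribosomal protein L28e (189249) had 146 and 122 RPKM at spawning, against 473 to 879 RPKM (median 553) later (log2 difference −1.88, SE 0.12, edgeR adjusted p = 1.6e-07). The most abundant described gene called lower, ribosomal protein S25e (191603), had 704 and 628 RPKM at spawning, against 2146 to 3616 RPKM (median 2711) later. The 2 higher ones were a gene annotated S24e (182315), 4226 bp long, with 93.7 and 97.9 RPKM at spawning, against 25.5 to 48.8 RPKM (median 38.7) later, and one annotated L8e (213432), with 76.3 and 73.6 RPKM, against 38.7 to 58.0 RPKM (median 48.9) later. Translation initiation factor 5A (195151) was also lower, with 934 and 943 RPKM at spawning, against 1462 to 2522 RPKM (median 2311) later.

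Of 15 glycolysis genes 11 (73.3%) were lower at spawning and 2 (13.3%) higher, beside 24.1% and 21.1% over all tested genes. Their median log2 difference was −1.57. Hexokinase 194802, which phosphorylates glucose on entry, had 26.0 and 23.6 RPKM at spawning, against 72.1 to 201 RPKM (median 107) later. Phosphoglycerate kinase 190666, which makes ATP in the later steps of the path, had 26.8 and 26.2 RPKM at spawning, against 79.1 to 207 RPKM (median 129) later. Enolase 189297 had 105 and 93.9 RPKM at spawning, against 283 to 837 RPKM (median 586) later. The 2 higher ones, a glyceraldehyde-3-phosphate dehydrogenase (153444) and pyruvate kinase (189950), were called only after scaling. Pyruvate kinase had 715 and 696 RPKM at spawning, against 356 to 798 RPKM (median 585) later, values that overlap before scaling.

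Of 63 respiratory chain genes 29 (46.0%) were lower and 2 (3.175%) higher, beside 24.1% and 21.1% over all tested genes. Without scaling 42 of these genes were lower and 1 higher. Their summed share of reads was not lowest at spawning, with 0.942% and 0.930% there and 0.748% and 0.788% in first flush. The highest later share was 1.59%. The complex I subunit NdufS6 (133027) had 30.5 and 28.5 RPKM at spawning, against 79.8 to 129 RPKM (median 87.1) later. The gene annotated cytochrome c oxidase subunit 6a (186076) was higher, with 59.3 and 57.6 RPKM at spawning, against 21.2 to 49.2 RPKM (median 29.4) later.

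Of 94 cell cycle and DNA replication genes 36 (38.3%) were lower at spawning and 4 (4.26%) higher, beside 24.1% and 21.1% over all tested genes. Without scaling 53 were lower and 0 higher. Cyclin-dependent kinase 195370, of the family that drives cell cycle steps, had 21.9 and 16.8 RPKM at spawning, against 92.5 to 135 RPKM (median 108) later (log2 difference −2.21, SE 0.11, edgeR adjusted p = 4.5e-08). The kinetochore protein Spc25 (194960), which ties chromosomes to the spindle, had 11.3 and 12.04 RPKM at spawning, against 32.2 to 78.8 RPKM (median 47.8) later. The APC cofactor CDC20 (227285) had 22.1 and 20.5 RPKM at spawning, against 11.8 to 20.9 RPKM (median 15.9) later, and was called higher only after scaling.

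**Figure D4:**
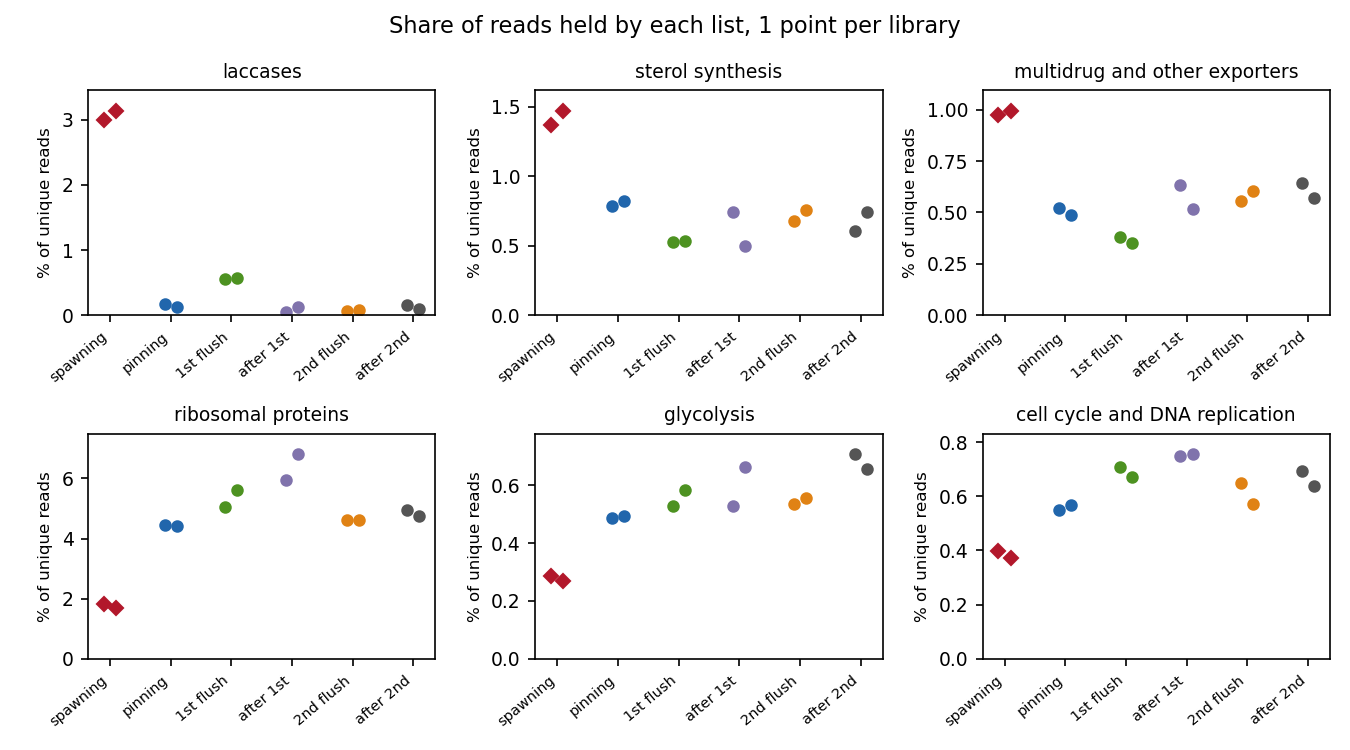
Share of unique reads (y axis, percent) held by 6 gene lists in each library, with stages on the x axis in order of sampling. Laccases take 2.99% and 3.14% at spawning and at most 0.572% later, while ribosomal proteins take 1.83% and 1.68% at spawning and 4.42% or more later.

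Of 43 proteasome genes 22 (51.2%) were lower and 3 (6.98%) higher, and of 9 autophagy genes 6 (66.7%) were lower and 0 higher. Over all tested genes 24.1% were lower and 21.1% higher. The proteasome subunit annotated non-ATPase regulatory subunit 10 (66741) had 7.76 and 8.97 RPKM at spawning, against 26.2 to 76.4 RPKM (median 43.5) later. ECM29 (66531), a proteasome-associated scaffold in yeast, was higher, with 13.3 and 12.1 RPKM at spawning, against 0.564 to 4.48 RPKM (median 2.88) later. Autophagy-related protein 5 (185310), part of the conjugation machinery of autophagosomes, had 17.4 and 15.5 RPKM at spawning, against 34.4 to 57.4 RPKM (median 43.1) later.

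Of 54 chaperones tested 17 (31.5%) were higher and 13 (24.1%) lower, the lower share being that of all tested genes, and without scaling 11 were higher and 20 lower, so the balance of this list turns with the scaling. The chaperonin GroEL homologue (195187), which folds proteins in mitochondria, had 790 and 784 RPKM at spawning, against 139 to 324 RPKM (median 250) later. The hsp70 gene 133986 had 4688 and 4407 RPKM at spawning, against 1534 to 3915 RPKM (median 2843) later. Prefoldin subunit 1 (189311), which hands new actin and tubulin to their chaperonin, was lower, with 12.5 and 10.6 RPKM at spawning, against 47.7 to 131 RPKM (median 68.4) later. Of 5 tested prefoldin subunits 4 were lower and none higher, and of 8 tested subunits of T-complex protein 1, the cytosolic chaperonin, 4 were lower and none higher, a grouping made after the values were seen. Its subunit beta (177986) had 50.3 and 46.5 RPKM at spawning, against 80.8 to 200 RPKM (median 153) later.

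**Figure D5:**
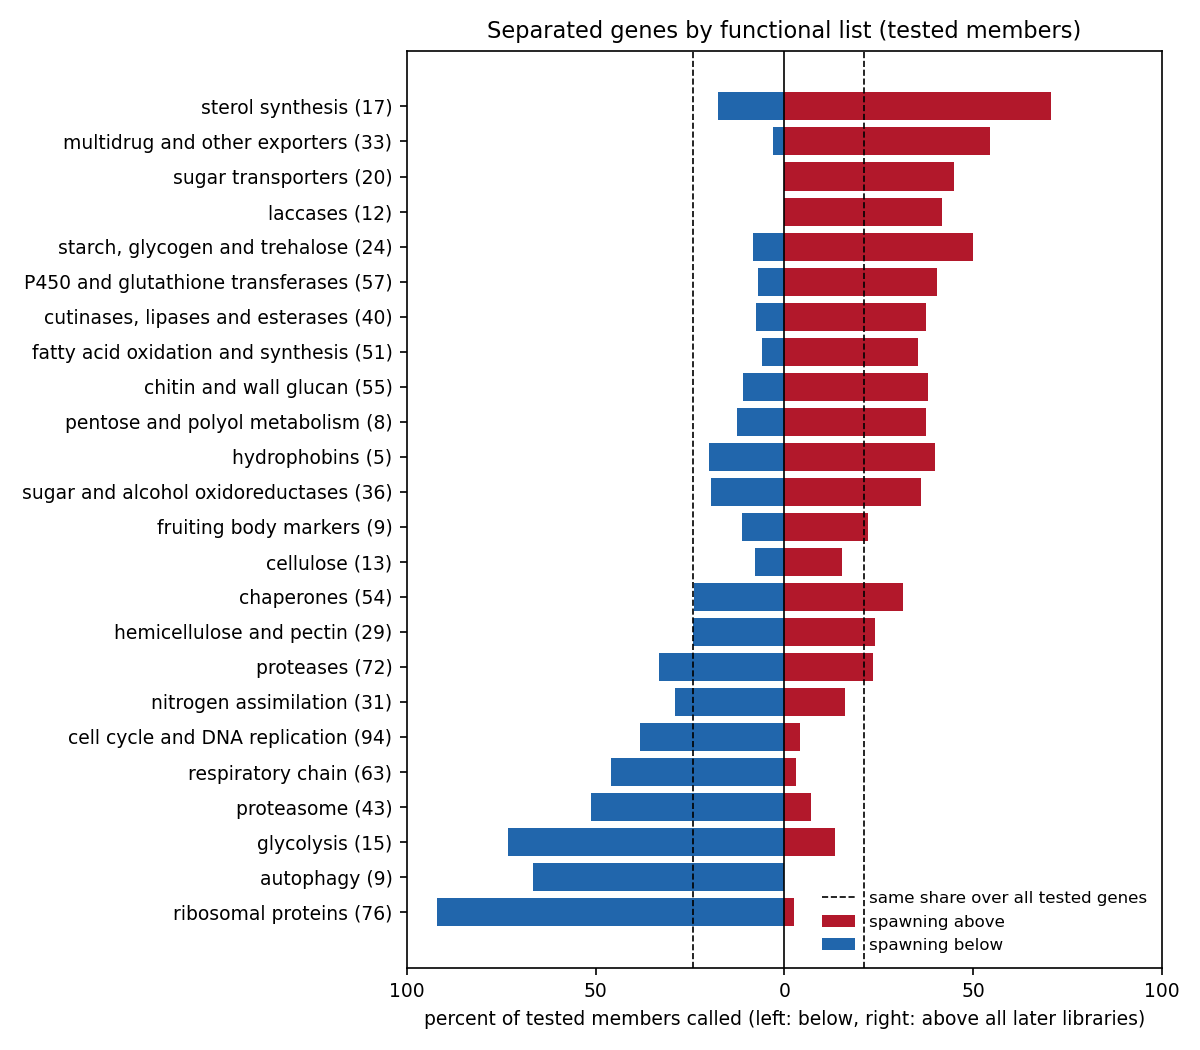
Percent of tested members of each list (rows, number tested in brackets) that lay below all later libraries (blue, to the left) or above them (red, to the right), with the shares over all tested genes, 24.1% and 21.1%, as dashed lines. Ribosomal proteins reach 92.1% lower and sterol synthesis 70.6% higher, while hemicellulose and pectin genes have 24.1% on either side.

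The 2 widest gaps belonged to genes without a description. Gene 137057 had 1780 and 1875 RPKM at spawning, against 0.418 to 2.86 RPKM (median 1.36) later, a gap of 563-fold (log2 difference 10.64, SE 0.18, edgeR adjusted p = 1.3e-11). Gene 180174 had 801 and 821 RPKM at spawning, against 0.435 to 5.86 RPKM (median 1.249) later, a gap of 135-fold. Gene 178707 had 894 and 652 RPKM at spawning, against 4.94 to 43.3 RPKM (median 22.1) later. All 3 were detected in every library. On the lower side gene 195950 had 24.4 and 14.5 RPKM at spawning, against 308 to 775 RPKM (median 424) later. Gene 195570 had 42.2 and 33.3 RPKM at spawning, against 461 to 928 RPKM (median 581) later.

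At the limit of the separation the values were close together. The RNA helicase 192108 was just called higher, with 344 and 371 RPKM at spawning, against 226 to 370 RPKM (median 283) later. Histone gene 139997 just missed it, with 792 and 799 RPKM at spawning, against 613 to 1011 RPKM (median 758) later. Pyruvate carboxylase 193409 was just called lower, with 33.4 and 28.9 RPKM at spawning, against 43.1 to 168 RPKM (median 78.3) later. RNA polymerase I subunit RPA49 (187943) just missed, with 32.4 and 27.5 RPKM at spawning, against 41.4 to 72.9 RPKM (median 52.2) later. Overlap is judged after TMM scaling, so RPKM values of these genes may overlap where the scaled ones do not.

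For genes higher at spawning, the later library that came nearest was from second flush in 28.4% and from pinning in 24.2%. Over all tested genes the highest later library was from second flush in 14.8% and from pinning in 16.8%. After first flush came nearest in 11.6% of the higher genes, against 24.8% over all tested genes. For genes lower at spawning, the nearest library was from pinning in 27.8%, against 20.1% over all tested genes, and from second flush in 19.6%, against 13.7%. These shares are descriptions and were not tested.

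In the RefSeq order of the H97 genome, runs of at least 3 neighbouring genes called in 1 direction numbered 73 on the higher side and 111 on the lower side. With 21.1% and 24.1% of tested genes called, neighbours are often called together in any order, so nothing is read from these counts. The longest run had 9 genes, all lower, among them methylenetetrahydrofolate reductase (216007). The longest higher run had 6 genes, and a run of 4 held hydrophobin 193057 beside gene 178707. No test of these runs was made, and H97 is not the strain studied.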

How the data were processed

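Each of the 12 libraries has its own table of genes. The authors' counts in it are of uniquely placed reads, per the file headers, and add up to the header's total. The deposited RPKM follows from count, gene length and that total, and is not scaled between libraries. Genes absent from a table were taken as 0. The sources used here give no aligner, build or strandedness, so overlapping genes are uncertain. Of 9502 genes, 9440 (99.3%) matched H97 locus tags in RefSeq. Descriptions (4214 genes, 44.3%) are the informative nr name (384) or else the KEGG text (3830), and 361 KEGG texts with an e-value above 1e-10 were not used.

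Genes passing filterByExpr (minimum count 10, total 15) were scaled by TMM (factors 0.834 to 1.11, spawning 0.834 and 0.861) and entered edgeR's quasi-likelihood model (robust) with a term per stage, 6 residual degrees of freedom, common dispersion 0.022. The contrast was spawning minus the mean of the 5 later stages, two-sided. The SE of a log2 difference is its size over the root of F. Named genes were called, described and at 20 CPM or more on the higher side: the 12 with the widest gap and the 5 most abundant in each direction. To these were added the called member of each list with the widest gap, whatever its level, 3 undescribed genes in each direction, runs of neighbours, and 3 genes just inside and 3 just outside the separation. Members of lists were taken by description. The comparison, lists and naming rule were chosen with earlier results of these data known. Alternatives were DESeq2's test and size factors, no scaling, no count filter, limma on log2(RPKM + 1) (9006 genes), the later libraries as 1 group, the largest of the 5 stage p-values, a 1.5-fold threshold (glmTreat), a replicate block, leaving out libraries or stages, no separation, and thinning to equal depth. The last was chosen after seeing the data.

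The method was tested on simulated data for spawning against later stages over 8814 genes, where 50 genes at each size were changed. Recovery was 42% at 1.5-fold, 80% at 2-fold and 100% at 4-fold and 8-fold, with 6 false among 167 calls. All later stages had the same mean in the simulation and few genes were changed, while 45.2% of genes were called in the data. These rates therefore need not hold for the data. The software was R 4.3.3, edgeR 4.0.16, limma 3.58.1, DESeq2 1.42.0 and Python 3.11.15.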

Additional observations from a re-analysis of the deposited data

How the results depend on the processing

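Counts of genes higher at spawning were 1179 against a 1.5-fold threshold, 918 with the largest of the 5 stage p-values, 1130 with limma on RPKM and 1130 without scaling, against 1864 as reported. Counts of genes lower at spawning were 1259 with the largest of the 5 stage p-values, against 2122 as reported. Leaving out 1 library at a time gave 1775 to 2005 higher genes and 2047 to 2242 lower ones. All other settings, among them thinning to equal depth (1852 and 2096), left both counts within 1.5 times. Of the 92 called genes taken by the naming rule, none changed sign. Among these 92 genes, 9 lost the call when some library was left out, 7 without scaling and 21 with the largest of the 5 stage p-values. Further list members picked for their role were not part of this check. The 9 that lost the call when a library was left out include glycogen phosphorylase 209178, xylanase 79647 and hydrophobin 189334. The cause of the changes was not tested. The shallowest library held 7.27 M reads (mega-reads). Genes 226235, 79647 and 122757, of at most 9 reads in a spawning library, had SEs of 1.3, 1.66 and 1.41. Their pairs after first flush were 9.15 and 87.5, 2.89 and 86.1, and 18.1 and 262 RPKM. Genes 189334 (9 and 13 spawning reads) and 118570 (14 and 8) each had an SE of 0.28. The source of the wide errors was not tested.

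With the replicate number as a block 1863 genes were higher and 2121 lower. Deviations of same-numbered libraries from their stage means had correlations of −0.253 to 0.232 over 15 pairs, 1 of them over 0.1. Whether the numbers pair the samples is not in the labels, and correlations of expression cannot decide it.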

Other observations

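The lists in these 2 paragraphs were drawn up after the values had been seen, so their counts are descriptions. Beside them, 21.1% of all tested genes were higher and 24.1% lower, and 12.8% and 33.9% without scaling. Of 25 genes for sulfur assimilation and sulfur amino acids 13 were higher at spawning and 4 lower, while without scaling 9 were higher and 7 lower. Together they took 1.38% and 1.36% of reads at spawning, against 0.424% to 0.681% later. Sulfate transporter 190734 had 219 and 192 RPKM at spawning, against 35.3 to 146 RPKM (median 68.0) later. Sulfate adenylyltransferase 192415, which activates sulfate, had 1024 and 1053 RPKM at spawning, against 158 to 592 RPKM (median 478) later. The beta component of sulfite reductase (71094) had 902 and 870 RPKM at spawning, against 143 to 268 RPKM (median 239) later. Cystathionine gamma-lyase 209095, which makes cysteine, had 1970 and 1999 RPKM at spawning, against 79.3 to 499 RPKM (median 293) later. Cystathionine gamma-synthase 202594, given in the report, and cystathionine beta-lyase 194632, both on the way from cysteine to methionine, were lower. Of 13 sphingolipid genes 8 were higher and 0 lower. A sphingomyelin phosphodiesterase (194192) had 192 and 186 RPKM at spawning, against 5.67 to 41.8 RPKM (median 13.1) later, and sphingolipid delta-4 desaturase 187203 had 155 and 179 RPKM, against 28.9 to 55.1 RPKM (median 45.6) later.

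Of 17 actin cytoskeleton genes 13 were lower at spawning and 2 higher, with a median log2 difference of −1.72. Of the Arp2/3 subunits, subunit 4 (192722) had 37.3 and 34.4 RPKM at spawning, against 125 to 211 RPKM (median 174) later. Cofilin 223913, which severs filaments, had 79.2 and 74.2 RPKM at spawning, against 264 to 395 RPKM (median 332) later. One gene annotated as Arp2/3 subunit 1 (213426) was higher, with 13.4 and 9.55 RPKM at spawning, against 1.75 to 4.95 RPKM (median 2.17) later. Of 8 subunits of the COP9 signalosome, which trims a modifier off ubiquitin ligases, 7 were lower. Subunit 4 (192055) had 5.08 and 4.26 RPKM at spawning, against 23.6 to 46.0 RPKM (median 33.7) later. Subunit 1 (209370) was called higher only after scaling, with 61.1 and 54.9 RPKM at spawning, against 49.1 to 71.4 RPKM (median 56.2) later. Of 35 aminoacyl-tRNA synthetases 16 were lower and 3 higher (20 and 1 without scaling), and of 30 nucleotide synthesis genes 13 were lower and 1 higher (18 and 1 without scaling). Thymidylate synthase 194730, which makes the DNA base precursor, had 124 and 120 RPKM at spawning, against 520 to 995 RPKM (median 691) later.

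Gene length moved with the direction. Genes higher at spawning had a median length of 1606 bp and lower ones 1137 bp, beside 1299 bp over all tested genes. With tested genes cut into 3 groups by length, 13.1% of the shortest group (150 to 1008 bp) were higher and 30% lower. In the longest group (1663 to 11965 bp) 30.2% were higher and 17.3% lower. The part of length in the results was not tested. Outside the shortest group 25.2% of all tested genes were higher and 21.1% lower. Of the 19 ribosomal protein genes outside it 15 were lower, of 10 such glycolysis genes 8, and of 78 such cell cycle genes 29, while of 15 such sterol genes 11 were higher. Of 28 such exporters, a list with a median length of 2268 bp, 17 were higher and 0 lower. The middle and longest groups are pooled here, so these counts do not set length aside. These counts are descriptions.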
